A study of Mus musculus with 2 samples.

Results

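Cytochrome P450 genes of families 1 to 4 were examined for binding of the transcription factor GATA4 in whole liver of healthy adult mice. The members were the GENCODE mouse release 21 protein-coding genes whose symbol is Cyp followed by a family number from 1 to 4, a subfamily letter and a gene number. There were 80 of them among 21938 protein-coding genes, in 21 subfamilies. They lie in 9 gene clusters of at least 2 members (gene bodies under 300 kb apart) and as 9 lone genes. Chromatin immunoprecipitation with a GATA4 antibody and sequencing (ChIP-seq) gave peak lists for 2 samples of 1 group, replicates 1 and 2. The labels number the samples as biological replicates 1 and 2 but give both 1 tissue and 1 donor identifier. Whether they come from separate animals is therefore not known, and differences between the replicates may be technical alone. The donor's age is labelled unknown and the sex was not collected. Control libraries were not used here.

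Cytochromes P450 are haem enzymes, here of the endoplasmic reticulum, that insert 1 oxygen atom into their substrates with electrons passed on from NADPH by a reductase. Families 1 to 3 oxidise drugs, toxins, steroids and arachidonic acid, and family 4 hydroxylates the far end of fatty acids and eicosanoids. Hepatocytes are the cells richest in these enzymes, and many of the genes respond to the receptors AHR, CAR, PXR and PPARA and to growth hormone. GATA4 binds DNA through zinc fingers at the letters GATA with A or T before them and A or G after them, called the GATA motif below. In adult liver it is best known from sinusoidal endothelial cells, and whole liver mixes these with hepatocytes, so a peak cannot be assigned to a cell type here.

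Peaks were taken from the optimal list, the one the authors made from both replicates by the irreproducible discovery rate (IDR), a measure of how far 2 rankings repeat each other. It held 24083 peaks, of which 24050 on chromosomes 1 to 19, X and Y were used. A peak was linked to a gene when its summit lay in the gene or within 10 kb. By this link 72 distinct peaks lay near the P450 genes, each counted once even where 2 genes reach it. Peaks that overlap each other but have separate summits were counted separately, here and among the other peaks. Such pairs lay near Cyp2f2, Cyp2u1, Cyp2w1, Cyp3a16, Cyp4a10 and Cyp4b1, so 72 exceeds the number of separate regions. The windows of 50 bases to each side of the summits of the strongest peak of each family, of the strongest peak with 2 GATA motifs and of the strongest 2 peaks without one show what these sites look like. They are read on the plus strand of GRCm38.p6 (mm10), with GATA motifs on either strand in capitals.
Cyp2j5, chr4:96665251-96665351: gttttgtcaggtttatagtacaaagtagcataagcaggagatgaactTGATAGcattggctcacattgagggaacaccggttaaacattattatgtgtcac
Cyp3a11, chr5:145881393-145881493: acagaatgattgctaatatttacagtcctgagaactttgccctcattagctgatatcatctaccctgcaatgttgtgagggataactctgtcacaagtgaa
Cyp4f14 and Cyp4f13, chr17:32924906-32925006: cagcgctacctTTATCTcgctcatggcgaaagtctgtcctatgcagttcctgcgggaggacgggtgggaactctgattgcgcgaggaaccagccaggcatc
Cyp4a10, chr4:115514232-115514332: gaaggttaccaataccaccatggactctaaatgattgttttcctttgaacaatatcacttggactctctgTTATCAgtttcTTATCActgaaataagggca
Cyp2c39, chr19:39510725-39510825: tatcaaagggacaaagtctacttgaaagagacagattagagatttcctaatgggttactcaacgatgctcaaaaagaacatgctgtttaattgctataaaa
Cyp1a1, chr9:57694268-57694368: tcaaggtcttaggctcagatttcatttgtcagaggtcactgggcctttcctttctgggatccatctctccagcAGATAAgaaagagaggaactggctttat

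GATA4 summits lay near 42 of the 80 P450 genes, 52.5% (95% Wilson interval of counting error 41.7 to 63.1%), in all 4 families. Among all protein-coding genes 47.2% had such a summit, and among the other genes, weighted to the P450 genes' spans, 49.9% did, so the P450 share in this list is near both. Among other genes that are like the P450 genes both in span and in how much of their sequence is unique in the assembly, a measure described with the gene copies, 29.8% did. The distance from the share of all genes differed between the peak lists. Replicate 1's own thresholded list, with 4287 peaks, reached 21 P450 genes (26.2%, interval 17.9 to 36.8%), against 11.3% of all genes and 10.1% of other genes at like span. Replicate 2's own list, with 26314 peaks on the chromosomes used, reached 48 P450 genes (60%, interval 49.0 to 70.04%) against 51.4% and 54.8%. Cut to its strongest 4287 peaks, replicate 2's list reached 21 P450 genes against 14.5% of all genes. The authors' conservative list of the earlier processing run reached 32 P450 genes (40%, interval 29.96 to 50.95%) against 21.7% of all genes and 21.1% at like span. With summits 5 kb or less from a start, 24 P450 genes were called (30%) against 29.8% of all genes and 33.2% at like span. Genes are not replicates and neighbouring members can share a peak, so no test stands behind these shares. All 21 P450 genes that replicate 1's list reached had a summit in the optimal list, while 6 that replicate 2's list reached did not (Cyp2d10, Cyp2c68, Cyp2c37, Cyp2j6, Cyp2b9 and Cyp2a4).

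**Figure D1:**
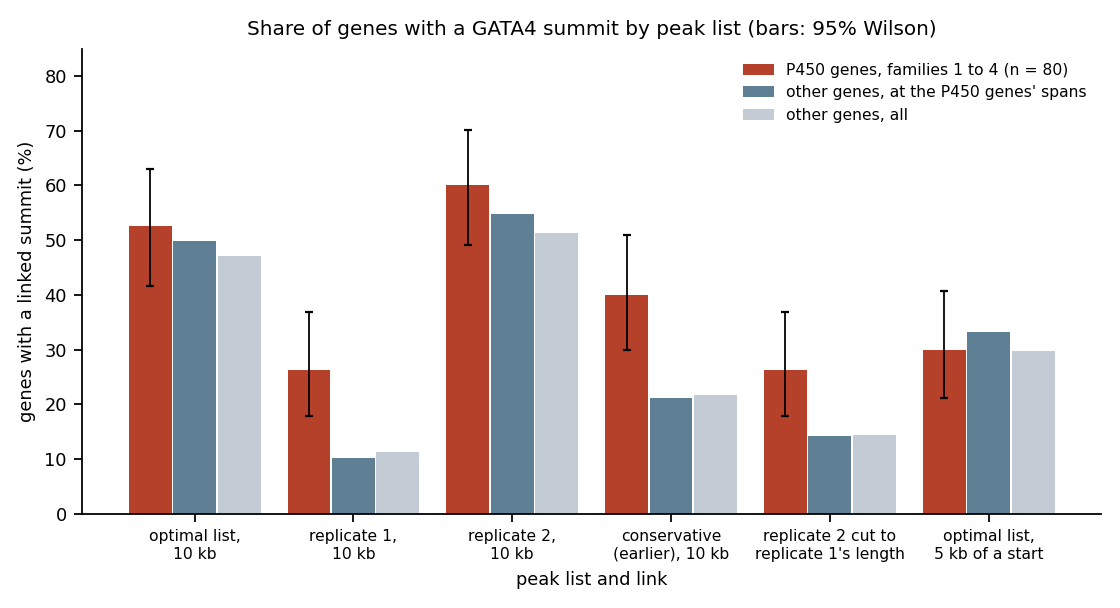
Share of genes with a linked GATA4 summit (y axis, %) for 6 combinations of peak list and link (x axis), for the 80 P450 genes, the other genes at the P450 genes' spans and all other genes. Bars on the P450 columns are 95% Wilson intervals of counting error, and the P450 column stands further above the others in replicate 1's list (26.2% against 10.1% at like span) and the conservative list (40% against 21.1%) than in the optimal list (52.5% against 49.9%).

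Family 1 holds the classical targets of the aryl hydrocarbon receptor, which oxidise aromatic hydrocarbons and amines. Cyp1a1 and Cyp1a2, its neighbour on chromosome 9, each had 1 summit and Cyp1b1 had none. The Cyp1a1 peak (chr9:57694295-57694384, rank 3979 of the list by signal score) lay 3295 bp upstream of the main start, in an intron of a longer transcript, with 1 GATA motif. It ranked 27608 in replicate 1's relaxed list and 3070 in replicate 2's, and passed the threshold in replicate 2 alone. The Cyp1a2 peak ranked 11941 and lay 12478 bp downstream of the start of this constitutive, pericentral hepatocyte gene.

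Family 2, the largest, had summits near 22 of 48 genes, with 47.2% of all protein-coding genes as the background. In the Cyp2c subfamily, whose enzymes epoxidise arachidonic acid and hydroxylate drugs, they lay near Cyp2c29, Cyp2c38, Cyp2c39, Cyp2c50, Cyp2c67, Cyp2c70 and the distant lone gene Cyp2c23, and not near Cyp2c37, Cyp2c40, Cyp2c54, Cyp2c55, Cyp2c65, Cyp2c66, Cyp2c68 or Cyp2c69. In the Cyp2d subfamily, they lay near Cyp2d9, Cyp2d11, Cyp2d22 and Cyp2d26, and not near Cyp2d10, Cyp2d12, Cyp2d34 or Cyp2d40. Of the Cyp2j genes, which also make epoxides of arachidonic acid, Cyp2j5 and Cyp2j9 had one, and Cyp2j6, Cyp2j7, Cyp2j8, Cyp2j11, Cyp2j12 and Cyp2j13 did not. Of the Cyp2a and Cyp2b genes, Cyp2a12 and Cyp2b10 had one, and Cyp2a4, Cyp2a5, Cyp2a22, Cyp2b9, Cyp2b13, Cyp2b19 and Cyp2b23 did not. The single genes Cyp2e1, Cyp2f2, Cyp2g1, Cyp2s1, Cyp2t4, Cyp2u1 and Cyp2w1 each had at least 1 summit, while Cyp2r1, which encodes a vitamin D 25-hydroxylase, had none.

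Family 3 had summits near 5 of 9 genes and family 4 near 13 of 20, beside 47.2% of all protein-coding genes. In family 3, the main drug-oxidising family, these were Cyp3a11, Cyp3a13, Cyp3a16, Cyp3a25 and Cyp3a44, while Cyp3a41a, Cyp3a41b, Cyp3a57 and Cyp3a59 had none. Of the Cyp4a genes, whose enzymes omega-hydroxylate fatty acids, Cyp4a10, Cyp4a31 and Cyp4a32 had summits, and Cyp4a12a, Cyp4a12b, Cyp4a14, Cyp4a29 and Cyp4a30b had none. Of the Cyp4f genes, whose enzymes oxidise leukotrienes among other lipids, Cyp4f13, Cyp4f14, Cyp4f15, Cyp4f17, Cyp4f37, Cyp4f39 and Cyp4f40 had summits, and Cyp4f16 and the lone gene Cyp4f18 had none. Cyp4b1, Cyp4v3 and Cyp4x1 each had at least 1.

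**Figure D2:**
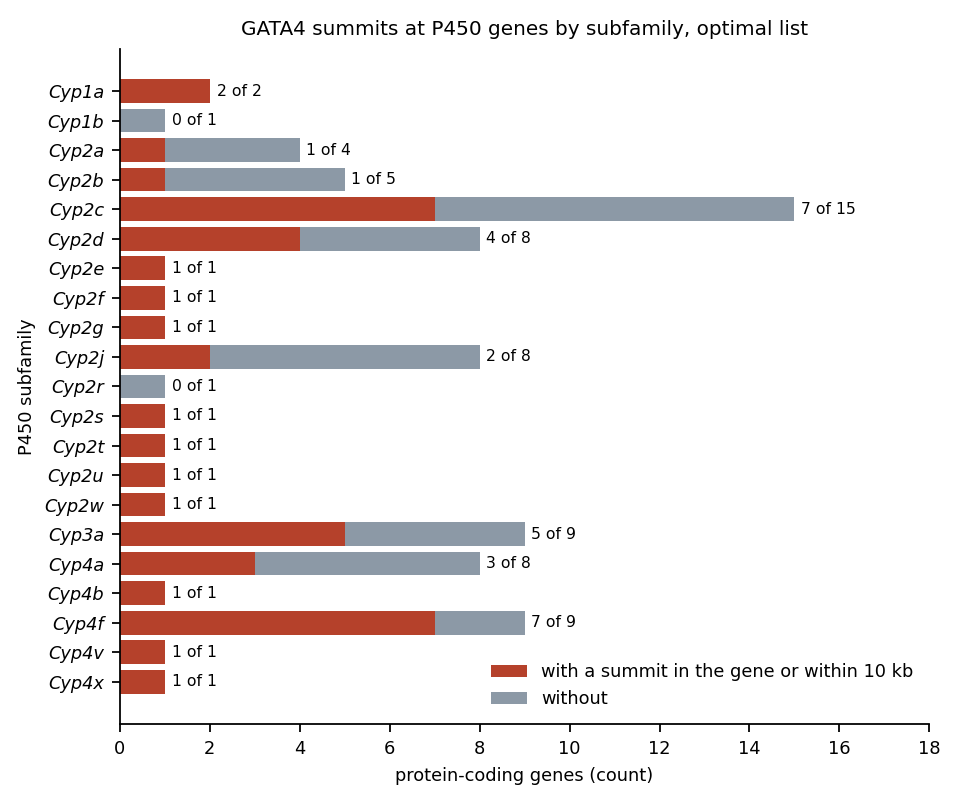
Number of P450 genes (x axis) in each of the 21 subfamilies (y axis) with and without a linked summit in the optimal list. Cyp2c holds the most genes, 7 of 15 with a summit, and Cyp2j reached 2 of 8, against 7 of 9 for Cyp4f. Among all protein-coding genes the share was 47.2%, and differences between these small subfamilies were not tested.

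The strongest P450 peak of the list lay 1147 bp upstream of Cyp2j5, which encodes an arachidonic acid epoxygenase of liver and kidney (chr4:96665204-96665361, signal score 127, rank 622). It was in both replicates' lists, at rank 337 in replicate 1's relaxed list and 1049 in replicate 2's. Its window held 1 GATA motif at the summit, shown above. A second, weak Cyp2j5 peak ranked 17011 in an intron, and the only peak near Cyp2j9 ranked 21987, 156 bp inside it.

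Cyp3a11, the main drug-metabolising Cyp3a gene of mouse liver and a target of PXR, had the second strongest peak, 1479 bp upstream of its start (chr5:145881391-145881537, signal score 114, rank 919). It was in both replicates' lists, at ranks 782 and 1415 of replicate 1's and replicate 2's relaxed lists. There was no GATA motif within 50 bp of its summit. The plain letters GATA occurred 3 times there, and the nearest GATA motif lay 70 bp away. The lone gene Cyp3a13, expressed chiefly in the gut, had 3 GATA motifs around a summit 240 bp upstream of its start (chr5:137921679-137922038, signal score 74.6, rank 3079, both replicates). A peak with 2 GATA motifs lay 38468 bp downstream of the Cyp3a16 start (chr5:145431075-145431434, signal score 80.1, rank 2604, both replicates). In replicate 1's and replicate 2's relaxed lists the Cyp3a13 peak ranked 2218 and 4115, and the Cyp3a16 peak 1759 and 3486. Cyp3a44 had an intronic peak of rank 7508 in replicate 2's list only, and Cyp3a25 a peak 8911 bp upstream of rank 13621 in both.

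Cyp2d22, often named as the mouse relative of human CYP2D6, had 6 summits, the highest number among the 80 genes. The strongest lay 577 bp inside it (chr15:82379593-82379805, signal score 109, rank 1060) and the next 2495 bp upstream (chr15:82382708-82382800, signal score 79.8, rank 2638), both in both replicates' lists. They ranked 1922 and 3262 in replicate 1's relaxed list, and 997 and 2236 in replicate 2's. A weaker one lay 397 bp upstream (rank 10309, replicate 2's list only), and these 3 peaks also lay within 10 kb of Cyp2d11, which had no other. Another 2 of the Cyp2d22 summits (rank 2853 with signal score 76.9, and rank 4075, both in replicate 2's list only) were nearest the start of Ndufa6, a gene of the respiratory chain. The peak counted for Cyp2d9, a male-biased gene, ranked 2673 (chr15:82423535-82423894, signal score 79.4) and was in both replicates' lists without a GATA motif, at ranks 892 and 4818 of their relaxed lists. It lay 28619 bp upstream of the start of the gene's protein-coding transcript, and it was reached because the annotated gene body begins far upstream of that transcript, so Cyp2d10 had the nearest start. Cyp2d26 had a peak 138 bp upstream of its start (rank 6329) and a stronger one 1802 bp upstream (rank 5090), both in replicate 2's list only.

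In the Cyp2c cluster of chromosome 19, summits sat at nearly the same place in 5 promoters. They lay 91 bp upstream of the start in Cyp2c29, 90 bp in Cyp2c38, 87 bp in Cyp2c39, 84 bp in Cyp2c67 and 57 bp in Cyp2c70, which makes muricholic acids in mice. Cyp2c39 had the strongest of these (rank 1807, signal score 91.6), at rank 487 in replicate 1's relaxed list and 3372 in replicate 2's. Cyp2c70 (rank 5596) and Cyp2c67 (rank 7331) were also in both replicates' lists, Cyp2c29 (rank 6601) in replicate 2's only, and Cyp2c38 (rank 20506) in neither. The windows are printed on the gene's own strand, 5′ to 3′, since they show paralogues carrying like letters at a like distance from the start. The Cyp2c39 window, printed above, is cut through a GATA motif 49 bp before its summit, and 2 GATA motifs lay within 100 bp.
Cyp2c29, chr19:39286933-39287033, plus strand: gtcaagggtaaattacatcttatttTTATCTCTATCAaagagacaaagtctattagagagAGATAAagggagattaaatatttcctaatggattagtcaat
Cyp2c38, chr19:39463115-39463215, minus strand: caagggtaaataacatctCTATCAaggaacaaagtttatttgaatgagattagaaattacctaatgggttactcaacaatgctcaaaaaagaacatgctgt
Cyp2c67, chr19:39649085-39649185, minus strand: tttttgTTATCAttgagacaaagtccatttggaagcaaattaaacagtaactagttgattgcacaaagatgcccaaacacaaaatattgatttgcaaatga
Cyp2c70, chr19:40187293-40187393, minus strand: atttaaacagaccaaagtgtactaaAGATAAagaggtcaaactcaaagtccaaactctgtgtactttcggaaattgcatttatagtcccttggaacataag

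The first base of the motif stood at -116, -110 and -81 from the start in Cyp2c29, at -122 in Cyp2c38, at -128 in Cyp2c67 and at -82 in Cyp2c70. In 4 of these 5 windows, all but that of Cyp2c70, the letters ACAAAGT (searched on both strands and chosen after the windows were seen) also occurred. They occurred in 5 of the 72 P450 windows and in 1.70% of the 18073 other gene-linked windows. The letters CAAAGT followed by C or T and CA, an HNF4-type site, occurred at 2 P450 summits, those of Cyp2c70 and Cyp2c67, and at 0.852% of other gene-linked summits. Away from the promoters, Cyp2c50, a pericentral gene, had a peak with 2 GATA motifs in an intron 1625 bp inside the gene (chr19:40091247-40091406, signal score 88.5, rank 1995, both replicates). It ranked 651 in replicate 1's relaxed list and 3472 in replicate 2's. Cyp2c29, a target of CAR, had its strongest peak 1222 bp upstream of the main start, inside a longer transcript (chr19:39285790-39285903, signal score 79.8, rank 2630, both replicates). That peak was the best-ranked P450 peak of replicate 1's relaxed list, at rank 323, and ranked 7729 in replicate 2's.

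The Cyp4a10, Cyp4a32 and Cyp4a31 genes, fatty acid hydroxylases of which Cyp4a10 and Cyp4a31 were listed as targets of PPARA, each had a peak in the sequence upstream of the gene. The summits lay 3982 bp upstream in Cyp4a10 (chr4:115514206-115514332, signal score 93.7, rank 1699), 3814 bp in Cyp4a32 (chr4:115596981-115597340, signal score 89.1, rank 1951) and 7719 bp in Cyp4a31 (chr4:115555750-115556109, signal score 67.0, rank 3927). All 3 were in both replicates' lists. In replicate 1's relaxed list they ranked 914, 422 and 1202, and in replicate 2's 2667, 4008 and 6817. Each window held 2 GATA motifs at the same spacing, so their plus-strand sequences are set below the Cyp4a10 window printed above. The Cyp4a10 window was 97.03% identical to its copy upstream of Cyp4a32. The share of its sequence that is unique in the assembly, a measure described with the gene copies, was 78.8%. It was 90.9% for the Cyp4a32 window and 95.5% for that of Cyp4a31.
Cyp4a31, chr4:115555880-115555980: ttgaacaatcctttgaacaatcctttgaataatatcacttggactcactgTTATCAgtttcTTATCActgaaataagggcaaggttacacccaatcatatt
Cyp4a32, chr4:115597111-115597211: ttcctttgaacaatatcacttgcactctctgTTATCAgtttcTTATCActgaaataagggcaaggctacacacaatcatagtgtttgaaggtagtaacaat

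The motif's first bases stood 11 bases apart in each of them, at -3962 and -3951 from the start in Cyp4a10, at -3833 and -3822 in Cyp4a32 and at -7719 and -7708 in Cyp4a31. Cyp4a14, the other PPARA target listed, had no summit in the gene or within 10 kb, nor did the male-biased Cyp4a12a and Cyp4a12b. Within the same cluster, Cyp4x1, known chiefly from brain, had a peak 667 bp inside the gene with 2 GATA motifs (chr4:115133130-115133489, signal score 76.4, rank 2913, both replicates). Cyp4b1, known chiefly from lung, had 3 peaks, of which the strongest (rank 5118) overlaps another (rank 15606).

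The strongest family 4 peak lay in an intron of Cyp4f13 near its end and 7614 bp upstream of Cyp4f14, a leukotriene and fatty acid hydroxylase gene (chr17:32924872-32925001, signal score 98.9, rank 1451). It ranked 725 in replicate 2's relaxed list and had no counterpart there in replicate 1's, so this rank rests on replicate 2 alone. Its 1 GATA motif lay near the edge of the window. Cyp4f39, whose human relative acts on very long fatty acids of the skin, had a peak with 4 GATA motifs in an intron (chr17:32480273-32480382, signal score 72.3, rank 3312, both replicates). In replicate 1's and replicate 2's relaxed lists it ranked 1575 and 4263, and the Cyp4x1 peak 1413 and 4400. The reference marks 93.1% of the Cyp4f39 window as repeat sequence.

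Among the remaining genes, Cyp2a12 had a promoter peak with a GATA motif whose first base stood at -117 from the start (chr7:27028809-27029168, signal score 81.8, rank 2449, both replicates), at ranks 2544 and 2507 of replicate 1's and replicate 2's relaxed lists. Cyp2u1, a fatty acid hydroxylase gene expressed in many tissues, had 5 summits, the strongest 9280 bp upstream with 2 GATA motifs (chr3:131312447-131312581, signal score 81.4, rank 2477, replicate 2's list only). Cyp2w1 had its strongest peak 6867 bp downstream of its start (chr5:139359304-139359663, signal score 70.6, rank 3504, replicate 2's list only). In replicate 1's relaxed list the Cyp2u1 and Cyp2w1 peaks ranked 5895 and 6685, and in replicate 2's 2243 and 3531. Cyp2e1, the ethanol-oxidising enzyme gene, had a peak 6983 bp upstream (chr7:140756576-140756935, rank 7134), a weak one 90 bp upstream (rank 18057) and one in an exon (rank 15795), all in replicate 2's list only. Cyp2g1, known from olfactory tissue, had a peak 7719 bp upstream (rank 6248, replicate 2's list only). Cyp2b10, the classical CAR target, had a single peak 8287 bp upstream (chr7:25889153-25889512, rank 13600) that passed neither replicate's threshold. The only Cyp4v3 peak (chr8:45329331-45329690, rank 13815) and the stronger of the 2 Cyp2c23 peaks (chr19:43999135-43999494, rank 13952) were in replicate 2's list only, and both Cyp2c23 peaks were nearest the start of Cpn1, a carboxypeptidase gene. Cyp2f2, a gene of periportal hepatocytes, had 2 overlapping promoter peaks of ranks 13731 and 21754.

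**Figure D3:**
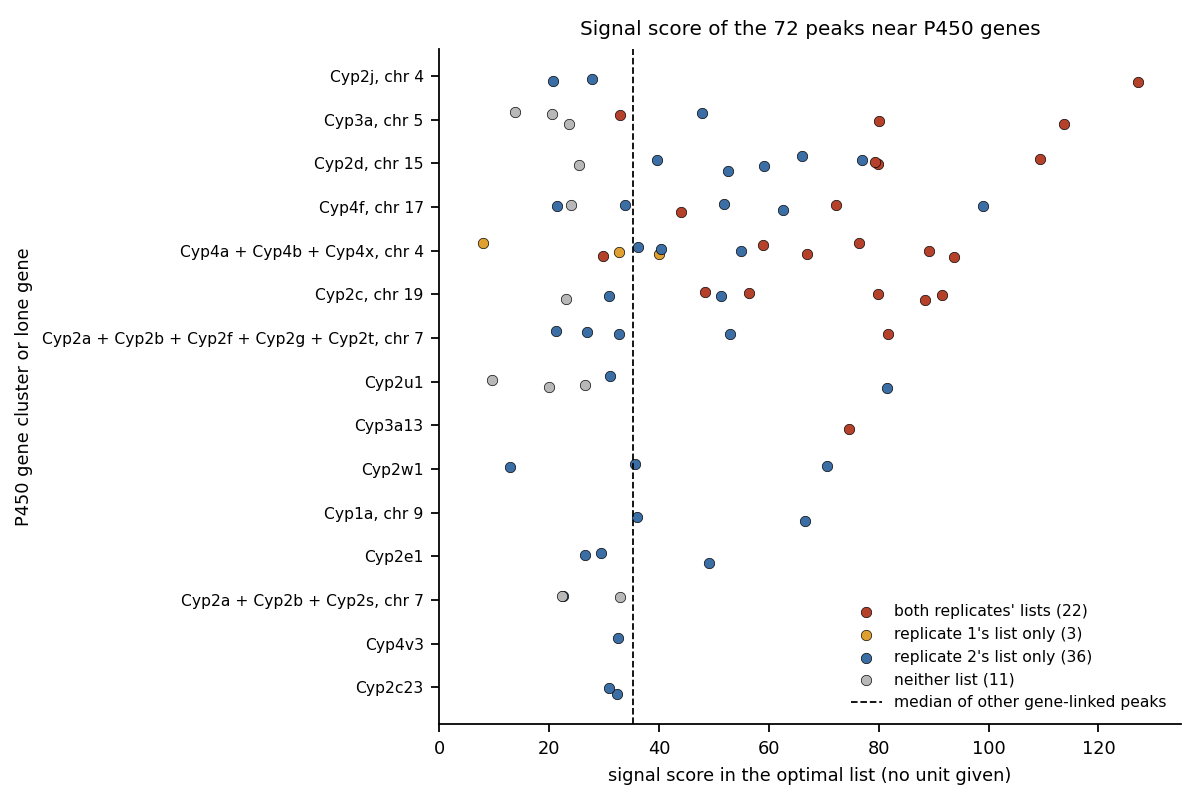
Signal score of the 72 P450 peaks in the optimal list (x axis, no unit given by the authors) by gene cluster or lone gene (y axis, in order of the strongest peak), coloured by the replicates' own lists that hold them. The 22 peaks in both replicates' lists range from rank 622 to 15606, and the dashed line is the median of the other gene-linked peaks, 35.3. The peak of rank 15606 overlaps the Cyp4b1 peak of rank 5118 and matches the same peaks of the replicates' relaxed lists.

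The 72 P450 peaks reached from rank 622 to rank 24030 of the list. Their median rank was 10087.5, against 12285 for the other 18073 gene-linked peaks, and 23 of them (31.9%, interval 22.3 to 43.4%) were in the strongest 20% of the list, against 19.1%. Both replicates' lists held 22 of them (30.6%, interval 21.1 to 42.0%), against 14.7% of the others. With summits required to lie within 100 bp of each other, it was 21 (29.2%) against 13.8%. Replicate 1's list held 34.7% against 15.3%, and replicate 2's 80.6% against 82.7%. The remaining 50 peaks comprised 36 in replicate 2's list alone, 3 in replicate 1's list alone (near Cyp4a31 and Cyp4a10, those of Cyp4a10 overlapping) and 11 in neither. The nearest start was that of a P450 gene for 62 of the 72. Of the other 10, nearest Ndufa6, Cox19, Egln2, Cpn1, Axl or Hadh, 0 were in replicate 1's list, and the single peak of Cyp2t4 was one of them, at the promoter of Egln2. Peaks are not independent of each other within a cluster, and these intervals cover counting error only.

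The position of the P450 summits was described by share beside that of other gene-linked summits, without a test. Promoters (within 1 kb of a protein-coding start) held 21 (29.2%) against 28.6% of the others, introns 20 (27.8%, interval 18.8 to 39.0%) against 53.7%, exons 4 (5.56%) against 3.08%, and intergenic sequence 27 (37.5%, interval 27.2 to 49.0%) against 14.6%. Unlike the gene shares, these position shares were not weighted to the P450 genes' spans. The class of longest genes (109945 to 4434882 bp) held 0 P450 genes and 2194 others, 1500 of them with a summit. The class of shortest genes (57 to 2743 bp) also held 0 P450 genes and 2194 others, 480 of them with a summit. The part of gene span in the intron and intergenic shares was not tested. The peaks outside genes included the strongest of Cyp2j5, Cyp3a11, Cyp4a10 and Cyp4a32. Of the 72, 30 lay upstream of the closest linked P450 gene, 29 inside it and 13 downstream. The 18 within 1 kb of a P450 start belonged to Cyp2a12, Cyp2c29, Cyp2c38, Cyp2c39, Cyp2c67, Cyp2c70, Cyp2d22, Cyp2d26, Cyp2e1, Cyp2f2, Cyp2j9, Cyp3a13, Cyp4b1, Cyp4f13, Cyp4f17 and Cyp4x1.

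**Figure D4:**
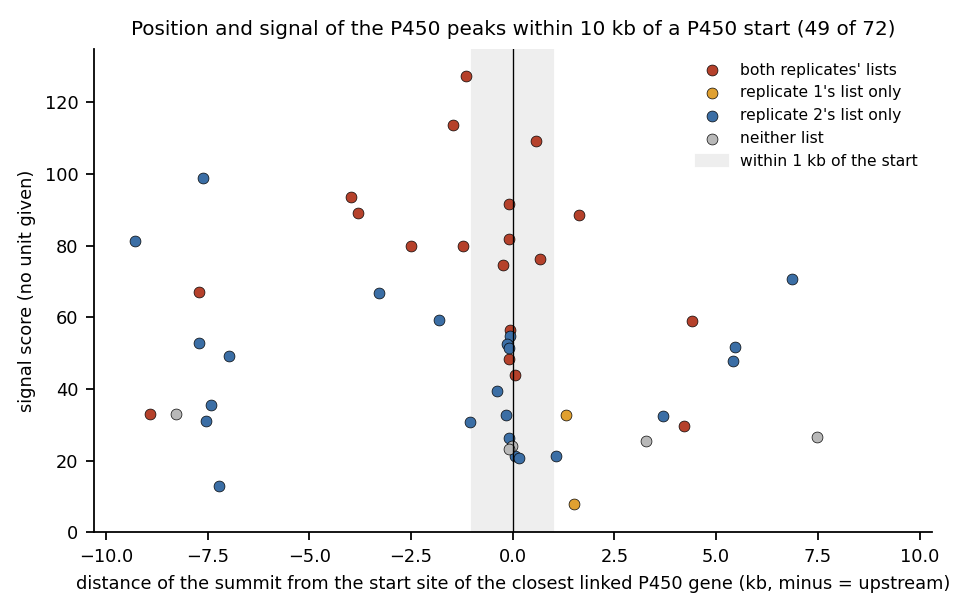
Signal score (y axis, no unit given) against distance of the summit from the start of the closest linked P450 gene (x axis, kb, minus for upstream) for the 49 of 72 P450 peaks within 10 kb of a P450 start. The strongest 2 points, for Cyp2j5 and Cyp3a11, lie 1147 and 1479 bp upstream, and 18 points lie in the shaded band within 1 kb of the start.

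GATA motifs were present within 50 bp of 44 of the 72 P450 summits (61.1%, interval 49.6 to 71.5%), against 50.5% of other gene-linked summits. In flanking windows of equal length, 500 bp away, the shares were 20.1% and 15.1%. At least 2 motifs were present at 16 P450 summits (22.2%, interval 14.2 to 33.1%) against 9.63% of the others. Outside promoters the shares with a motif were 66.7% and 60.5%. With the stricter letters AGATAA the order turned, with 23.6% of P450 summits against 26.0% of the others. Of the P450 peaks in both replicates' lists 18 of 22 had a motif, against 4 of the 11 in neither list. Among the 28 P450 summits without a motif within 50 bp, 9 had the plain letters GATA there and 9 had the full motif within 100 bp, those of Cyp3a11 and Cyp2c39 among both. P450 windows were also richer in A and T, with a median GC content of 45.0% against 51.5%, and the part of this in the motif shares was not tested.

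Other letters were searched in the same windows on both strands. GGAA with A or C before and A or G after, the core of sites for ETS factors, occurred at 26.4% of P450 summits and 28.5% of their flanks, against 45.7% of other gene-linked summits and 25.5% of theirs. GGGCGG occurred at 0 of 72 P450 summits (upper Wilson bound 5.07%), against 11.5% of the others. In the flanks these letters were at 0.694% and 4.68%. Outside promoters they were at 0 of 51 P450 summits and 3.81% of the others. TGTTTAC or TGTTTGC, as bound by forkhead factors, occurred at 7 P450 summits (9.72%, interval 4.79 to 18.7%) against 4.89%, among them the strongest of Cyp2u1 and Cyp2c29. TTGCNNAA, as bound by C/EBP factors, occurred at 8 (11.1%, interval 5.74 to 20.4%) against 5.44%, and AGGTCA, the core of nuclear receptor sites, at 10 (13.9%, interval 7.72 to 23.7%) against 11.2%. TTCNNNGAA, as bound by STAT factors, was at 2.78% against 2.74%, TNGCGTG of the aryl hydrocarbon receptor at 2.78% against 1.68%, and CAGCTG at 5.56% against 7.55%. The unrelated letters ATATGC or TTATGC, searched as a control, were at 9.72% against 3.69%, a wider gap than that of the forkhead letters.

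In the RefSeq promoter table (GRCm38.p6, 250 bases before to 50 after the start), 65 of the 80 P450 genes were matched. A GATA motif was present in 38 of these promoters (58.5%, interval 46.3 to 69.6%) against 28.7% of 16457 other protein-coding genes. It was present in 11 of the 13 matched P450 genes with a summit within 1 kb of a start, and in 27 of the 52 (51.9%) without one. Among the other genes the shares were 26.7% with such a summit and 29.4% without. The base composition of these promoters was not compared, and its part in these shares was not tested.

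Near-identical gene copies are a feature of these clusters, and a read from sequence shared by copies cannot be assigned to 1 of them. The share of 32-base words in a gene and 10 kb around it that occur once on the assembled chromosomes was therefore computed, after the peak counts were seen. Its median was 71.8% for the 80 P450 genes against 91.9% for other genes. For the 42 P450 genes with a summit it was 80.4%, against 65.6% for the 38 without. The lowest values were those of Cyp3a41a (18.5%), Cyp3a41b (19.8%), Cyp2c40 (36.7%) and Cyp2c68 (36.7%), all without a summit. Of 16 P450 genes with at least 90% unique words 15 had a summit, all but Cyp1b1, against 57.4% of other genes at that uniqueness. Of 13 P450 genes below 50%, Cyp2c67 and Cyp3a44 had one, against 1.34% of other genes there. In the optimal list 52.5% of P450 genes had a summit, against 29.8% of other genes of like span and like uniqueness. That share was weighted over classes of span and uniqueness, of which the smallest held 9 other genes. All values below 50% unique formed 1 class of uniqueness. In replicate 1's list the values were 26.2% for P450 genes and 6.91% for those other genes, and in replicate 2's 60% and 33.1%. The read length is not given in the sources used here, and what uniqueness does to these counts was not tested.

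**Figure D5:**
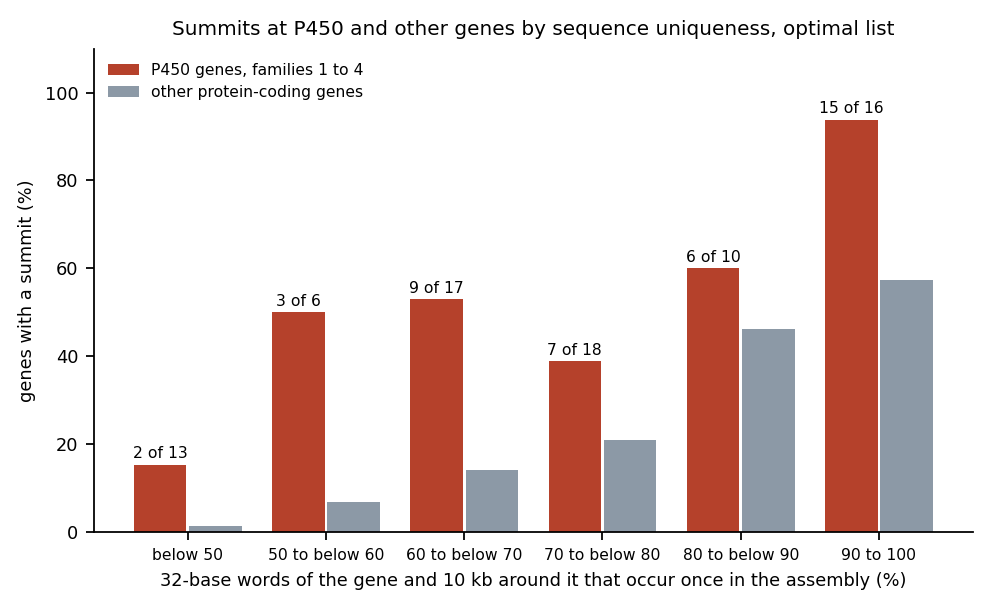
Share of genes with a linked summit in the optimal list (y axis, %) by the share of 32-base words of the gene and 10 kb around it that occur once in the assembly (x axis, %), for P450 genes and other protein-coding genes. P450 counts are printed over the bars, from 2 of 13 genes below 50% to 15 of 16 at 90% or more, and each P450 bar is above that of the other genes.

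All words were unique in 51 of the 72 P450 summit windows (70.8%), against 94.0% of other gene-linked windows. Among strong peaks, the windows of Cyp4f14 (rank 1451) and Cyp2c39 (rank 1807) had 87.1% and 74.2% unique words. Of the 72 windows, 11 had a copy of at least 90% identity near another gene of the subfamily, 17 copies in all. A summit lay in 1 of the 17, the copy at Cyp4a32. The Cyp2c67 promoter window, with 96.2% unique words, has copies of 92.1% identity at the female-biased genes Cyp2c40 and Cyp2c69. Each copy has its GATA motif and 11.4% unique words. The Cyp2a12 promoter window has a copy of 94.1% identity at Cyp2a22 with 79.5% unique words, and the Cyp3a25 window one of 97.03% identity at Cyp3a59 with 76.5%, neither with a summit. The Cyp2a12 and Cyp3a25 windows themselves have the same unique shares as these copies, 79.5% and 76.5%. These windows are printed on the gene's strand so that the bound copy and the copy without a summit can be set side by side.
Cyp2c40, no summit, chr19:39812777-39812877, minus strand: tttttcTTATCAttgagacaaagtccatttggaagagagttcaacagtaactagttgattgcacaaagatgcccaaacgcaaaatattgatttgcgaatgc
Cyp2c69, no summit, chr19:39886762-39886862, minus strand: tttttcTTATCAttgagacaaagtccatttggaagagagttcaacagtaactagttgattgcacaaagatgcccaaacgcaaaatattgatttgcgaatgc
Cyp2a12, summit, chr7:27028939-27029039, plus strand: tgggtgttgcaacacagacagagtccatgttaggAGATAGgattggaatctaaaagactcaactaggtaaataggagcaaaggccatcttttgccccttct
Cyp2a22, no summit, chr7:26939426-26939526, minus strand: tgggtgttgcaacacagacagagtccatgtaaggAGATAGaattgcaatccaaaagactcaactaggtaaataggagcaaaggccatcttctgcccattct
Cyp3a25, summit, chr5:146018478-146018578, minus strand: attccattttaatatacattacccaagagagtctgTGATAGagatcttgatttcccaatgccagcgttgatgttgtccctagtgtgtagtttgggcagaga
Cyp3a59, no summit, chr5:146070160-146070260, plus strand: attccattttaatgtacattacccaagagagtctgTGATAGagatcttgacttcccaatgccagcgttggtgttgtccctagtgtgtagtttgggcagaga

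By function, the listed pericentral hepatocyte genes had a summit at 5 of 8 (Cyp1a2, Cyp2c29, Cyp2c50, Cyp2e1 and Cyp3a11) and the listed genes expressed chiefly outside hepatocytes at 6 of 8 (Cyp2g1, Cyp2s1, Cyp2t4, Cyp2w1, Cyp4b1 and Cyp4x1). The CAR and PXR targets had 3 of 4 (Cyp2b10, Cyp2c29 and Cyp3a11, but not Cyp2c55), the aryl hydrocarbon receptor targets 2 of 3 and the PPARA targets 2 of 3. Male-biased genes had 2 of 4 (Cyp2d9 and Cyp2u1) and female-biased genes 3 of 11 (Cyp2b10, Cyp3a16 and Cyp3a44). The female-biased list includes Cyp3a41a, Cyp3a41b, Cyp2c40, Cyp2c69 and Cyp2a4, whose unique shares were between 18.5% and 41.2%. Among partner genes, the electron donors Por, Cyb5a, Cyb5b and Cyb5r3 all had a summit, with the strongest at Cyb5a (rank 82) and Por (rank 206). So did all 20 listed regulators, with the strongest at Ppara (rank 38), Cebpb (rank 164), Nr3c1 (rank 344), Nr1i3, which encodes CAR (rank 406), and Nr1i2, which encodes PXR (rank 436). All of these ranks stand above the best P450 rank of 622. Markers of hepatocytes (4 of 4) and of sinusoidal endothelium (4 of 4) had summits, stellate cell markers 1 of 3 (Reln), and Kupffer cell and cholangiocyte markers 0 of 3 each, all with 47.2% as the background.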

How the data were processed

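GATA4 ChIP-seq peak lists of whole adult mouse liver, 2 replicates of 1 group, were used as deposited on mm10. Per the labels and the authors' README tables, the optimal list and a conservative list come from an earlier run of the authors' processing, and the replicates' thresholded and ranked lists, the pooled list and a second conservative list from a later one. No source used here names the aligner or the peak caller. Each line holds an IDR score deposited by the authors (125 times -log2 of the IDR, at most 1000, judging by the values) and the peak caller's signal score, which has no stated unit and serves only for ranks and description inside a list. Read depth is unknown, so intervals cover counting error over peaks or genes only.

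Summits (start plus offset) were set against GENCODE mouse release 21 basic annotation on GRCm38.p6 with Python 3.11.15, pandas 2.3.3, pysam 0.24.0, numba 0.67.0 and edlib 1.3.9.post1, and Wilson intervals came from scipy 1.17.1. A gene was called when a summit lay in it or within 10 kb. Other genes at like span means their share in each of 10 equal classes of gene span, weighted by the P450 genes in it, which replaces drawn gene sets. Motif searches covered both strands up to 50 bp from a summit and equal windows 500 bp to each side. Peaks shared by lists overlap by at least 1 base. Copies are the best alignment of a window to a same-subfamily gene with 10 kb around it, and identity is 100% less the edit distance per base. Linking, motif, overlap and word-counting code was tested on made-up data with known answers.

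The members and lists were chosen with earlier results of these data known. Named are every member, the 20 best-ranked P450 peaks and the strongest of each cluster or lone gene. Cyp2ab1, with a 2-letter subfamily, is not taken by the symbol rule. Alternatives were other links, lists, thresholds, windows, overlaps and rankings, and each replicate's own list. The uniqueness of words, the letters shared by Cyp2c promoters and the setting with P450-nearest summits alone were added after seeing the data.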

Additional observations from a re-analysis of the deposited data

How the results depend on the processing

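The number of P450 genes with a summit, 42 of 80, stayed within 1.5 times under links of 5 or 25 kb, the nearest start, the conservative and pooled lists, an IDR of 0.01, summits with a GATA motif alone, summits outside promoters alone and P450-nearest summits alone. With the share of all genes in brackets, it was 32 at 5 kb (42.1%), 50 at 25 kb (57.7%) and 45 by the nearest start (42.7%). The earlier and later conservative lists gave 32 (21.7%) and 34 (23.0%), and the pooled list 45 (46.9%). An IDR of 0.01 gave 36 (36.5%), summits with a GATA motif 33 (29.2%) and summits outside promoters 33 (30.9%). The number was 21 in gene bodies alone (28.7% of all genes) and 24 within 5 kb of a start (29.8%). With replicate 2's list cut to replicate 1's length it was 21 (14.5%), against 48 uncut (51.4%). With clusters counted once it was 15 of 18 loci. These loci span up to 1180 kb, and no background share was computed for loci of such size. Among genes with at least 90% unique words it was 15 of 16 (57.4% of other genes). With 1 replicate left out it was 21 or 48 (11.3% or 51.4% of all genes). The 72 distinct peaks became 40 and 46 in the earlier and later conservative lists, and 23 or 75 with 1 replicate left out. The promoter share was 43.1% at 2.5 kb, where other gene-linked summits had 35.7%. The share with a GATA motif was 23.6% for AGATAA, 73.6% within 100 bp, 41.7% within 25 bp, 85% in the earlier conservative list, and 61.3 to 73.9% with 1 replicate left out. Against the other peaks it was lower only for AGATAA, among the settings with a value for them. The share in both replicates' lists was 58.3% against 41.3% in ranked lists without a threshold, and the share in the strongest 20% of the list kept within its interval under every ranking tried. No paired analysis was possible because the series holds 1 group. Read depth is unknown, and replicate 1's short list limits every statement about support by both replicates.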

Other observations

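P450 genes of families above 4, which make and break down sterols, bile acids and retinoids, were outside the symbol rule, and 12 of 18 had a linked summit, against 47.2% of all protein-coding genes. The strongest were linked to Cyp17a1, a steroid hydroxylase gene (7 summits, best rank 70), and Cyp21a1, the adrenal 21-hydroxylase gene (1 summit, rank 244). Both ranks are better than that of any peak of families 1 to 4. Whether another gene's start lies nearer to the summits of families above 4 was not examined. Cyp7a1, the rate-limiting enzyme gene of bile acid synthesis, had 2 summits with best rank 1296, Cyp46a1, the brain cholesterol hydroxylase gene, 3 with best rank 2057, and Cyp7b1 4 with best rank 2555. Cyp26a1 and Cyp26c1, neighbours that clear retinoic acid, share a best rank of 3801. Cyp11a1, Cyp11b1, Cyp11b2, Cyp19a1, Cyp24a1 and Cyp27b1 had none.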
